A study of Bos taurus with 18 samples.

Results

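Genes that sense, move or export sterols were followed in MAC-T cells, a cultured bovine mammary epithelial line. The set was a chosen list of 8 genes: the transcription factor genes SREBF1 and SREBF2, their escort SCAP, the retention factors INSIG1 and INSIG2, the sterol carriers STARD4 and NPC1, and the exporter ABCA1. Of the 8 listed genes, 7 were found by symbol among the 30642 genes of the count table, and STARD4 was not analysed here. All 7 passed the filter on low counts that left 15158 genes for testing, with at least 69 counts in every library, so no gene entered through 1 group alone. The rule itself used no measured value, but the genes were chosen with earlier results of these data known. Shares of members or list genes set beside those of all genes are therefore descriptions.

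Cells hold the cholesterol of their membranes within a narrow range. SCAP binds sterols in the endoplasmic reticulum: when sterols are scarce it carries the SREBP precursors, products of SREBF1 and SREBF2, to the Golgi, where proteases free the active factors, and when sterols are plentiful INSIG1 or INSIG2 holds SCAP back. SREBP2 mainly drives genes of cholesterol synthesis and uptake and SREBP1 mainly those of fatty acid synthesis, and INSIG1 is itself a classic SREBP target. NPC1 releases cholesterol from lysosomes, while ABCA1, a target of the sterol-activated liver X receptors (LXR), moves cholesterol out of the cell. In the mammary gland SREBP1 is best known for its part in milk fat synthesis.

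Poly-A RNA was sequenced from 6 groups of 3 libraries each, to examine differentiation, heat stress and recovery. NHSUD cells were unheated and undifferentiated, and HSUD cells were undifferentiated and held at 42 °C for 1 h. NHSD cells were unheated and differentiated, HSD cells were differentiated and heated for 1 h, and D2R and D6R cells were differentiated, heated for 1 h and returned to 37 °C for 2 h or 6 h. Every group spent 4 days in culture at 37 °C with insulin (5 µg/ml) and hydrocortisone (1 µg/ml), so the undifferentiated cells were not free of glucocorticoid. Differentiated cells also received ovine prolactin (5 µg/ml) and dexamethasone (10 µg/ml) in what the labels call lactogenic medium. Serum is a source of sterols, and the labels name 10% fetal bovine serum for the basal medium and a supplement of 5% for the lactogenic one, without saying whether the 5% replaced the 10% or was added to it. Hormones and serum therefore cannot be told apart in any comparison of the media. Both unheated groups shared plate I, both heated groups plate II and both recovery groups plate III, so heat or recovery and the plate cannot be told apart either. The whole experiment was repeated 3 times, which the replicate numbers mark, and RNA of 2 technical replicates was pooled for each library.

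The libraries held between 40.9 and 61.2 M counts. Heat reached the heated groups: DNAJB1, a heat shock co-chaperone, measured 110 ± 6.39 CPM in NHSUD libraries and 1686 ± 374 in HSUD (CPM, counts relative to the TMM-scaled library total; SD, n = 3). All 5 luminal keratin and adhesion markers and all 3 basal markers were at 1 CPM or more, with sums of 5193 to 8048 and 8823 to 18410 CPM per library. Adipocyte, endothelial and leukocyte markers summed to at most 5.85 CPM per list. Of 4 fibroblast markers, DCN (526 to 617 CPM by group mean) and PDGFRA (6.80 to 10.1) were present, while both type I collagen genes stayed below 0.2 CPM in every group mean. The fibroblast sum spanned 426 to 621 CPM in NHSD and overlapped between all groups, and its part in the results was not tested.

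INSIG1 and ABCA1 separated the media in opposite directions, and INSIG1 also rose with heat where the replicate number was taken into account. SCAP fell by 6 h of recovery in the same kind of fit. SREBF1, SREBF2, INSIG2 and NPC1 passed no test in any comparison made over all libraries. The main test was edgeR's quasi-likelihood test with 1 mean per group over all 18 libraries, Benjamini-Hochberg adjusted over the 15158 genes, with calls made below an adjusted p of 0.05. A second fit added the replicate number as a block, because same-numbered libraries deviated together. Without the block, edgeR called none of the 7 members in any of 11 comparisons, while DESeq2 called ABCA1 for the averaged medium.

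**Figure D1:**
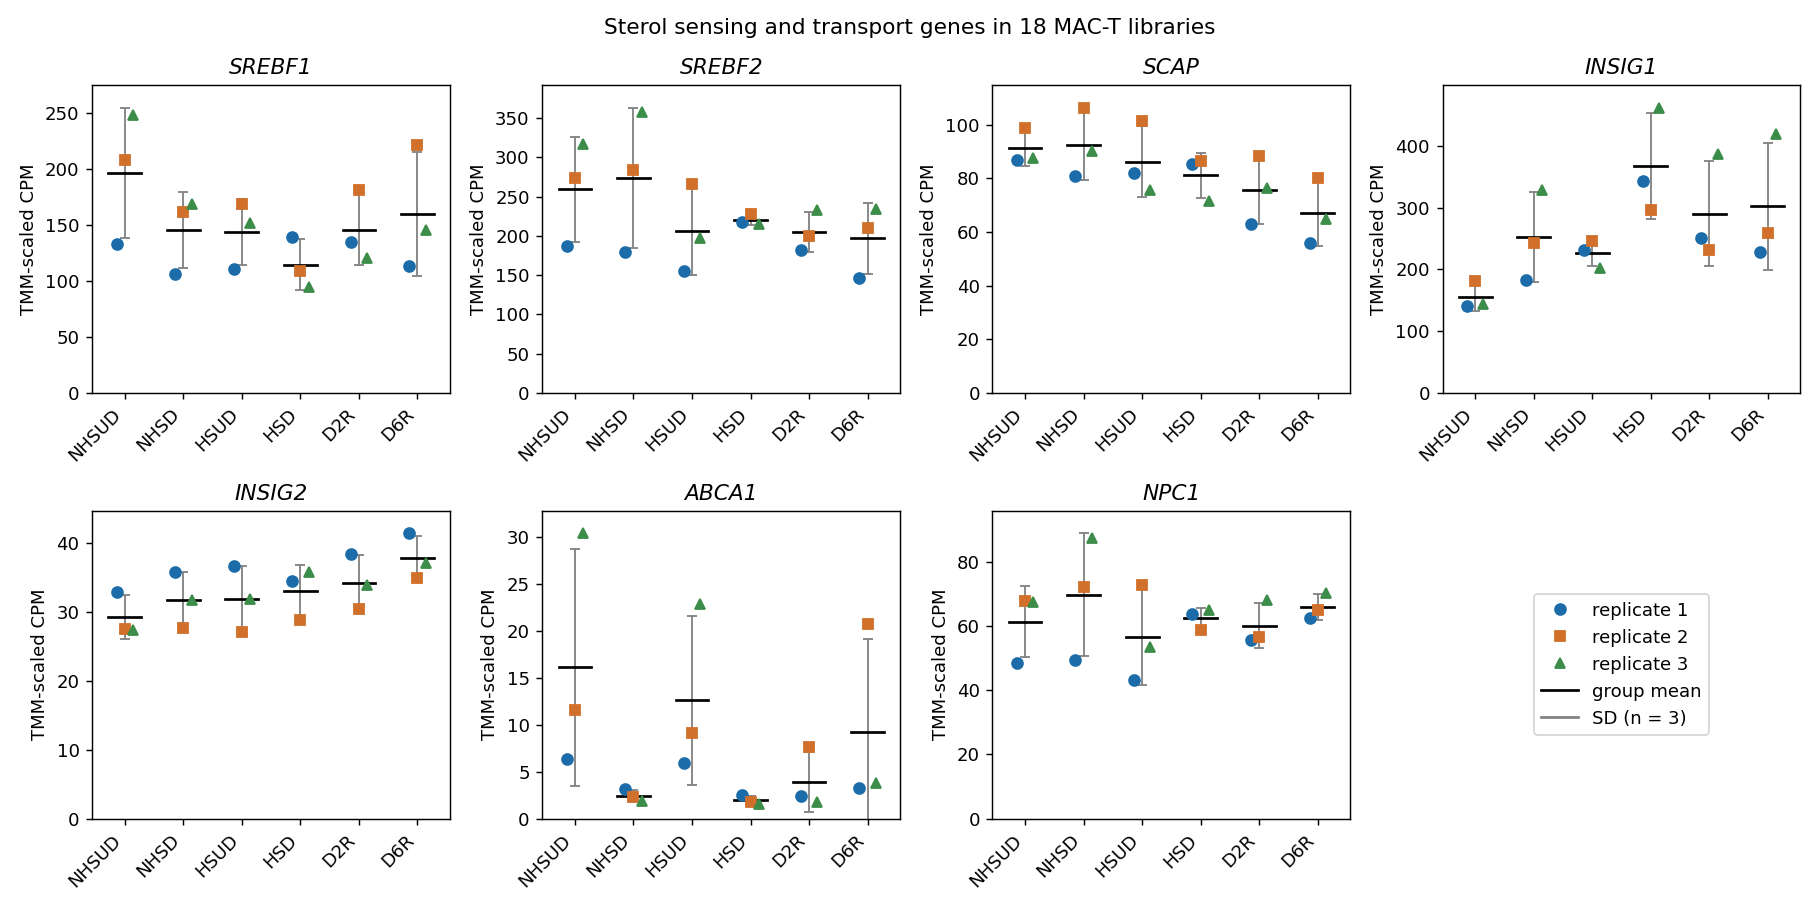
TMM-scaled CPM (vertical axes, 1 per gene, each from 0) of the 7 measured genes in the 6 groups; symbols are the 3 replicate numbers, black lines the group means and grey bars the SD (n = 3), drawn no lower than 0. INSIG1 ran from 140 to 462 CPM, and ABCA1 from 1.58 to 30.4 CPM with all 6 unheated or just-heated lactogenic libraries at 3.12 CPM or less.

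INSIG1, which retains the SCAP and SREBP complex in the endoplasmic reticulum, had the clearest order of groups. In undifferentiated unheated cells (NHSUD) it was at 140, 181 and 144 CPM in replicates 1, 2 and 3. In differentiated unheated cells (NHSD) it was at 184, 243 and 329 CPM. All 3 NHSD libraries were above all 3 NHSUD libraries, the closest values being 184 and 181. In heated cells the same order held, with 231, 246 and 203 CPM in HSUD and 344, 296 and 462 CPM in HSD. The log2 fold change with the lactogenic medium was 0.70 ± 0.26 (SE) in unheated and 0.70 ± 0.26 in heated cells, and 0.70 ± 0.18 when both were averaged, which is 1.62-fold. INSIG1 was higher in the lactogenic medium in 6 of 6 pairs of the same replicate number. The averaged difference was not called by edgeR (adjusted p = 0.389), by DESeq2 (0.0809) or with the replicate block (0.65 ± 0.14, adjusted p = 0.0501).

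ABCA1, the cholesterol exporter, differed between the media with the opposite sign. NHSUD libraries held 6.36, 11.6 and 30.4 CPM, and NHSD libraries 3.12, 2.32 and 1.91 CPM. HSUD libraries held 5.90, 9.09 and 22.9 CPM, and HSD libraries 2.49, 1.76 and 1.58 CPM. The undifferentiated libraries were higher without overlap in both pairs of groups, but they differed among themselves far more than the differentiated ones, with replicate 3 highest and replicate 1 lowest in NHSUD and in HSUD. The averaged log2 fold change was -2.71 ± 0.54 (SE), a level 6.53-fold lower in the lactogenic medium, and it was lower in 6 of 6 pairs of the same replicate number. The gap was unequal between replicates: the unheated difference was -1.02 in replicate 1, -2.30 in replicate 2 and -3.96 in replicate 3 on the log2 CPM scale. edgeR did not call it (adjusted p = 0.161, or 0.121 with the replicate block), while DESeq2 did (-2.71, adjusted p = 0.00293). In bulk RNA, fewer cells with ABCA1 and less ABCA1 RNA per cell cannot be told apart. Its counts ran from 69 to 1606 per library, the lowest of the set. Basal epithelial markers summed to between 12340 and 16950 CPM in NHSUD and between 11380 and 13160 in NHSD, luminal markers to 5655 to 7228 and 5193 to 7136, and their part in the result was not tested.

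Non-overlap of this kind was the exception among the members. Between NHSD and NHSUD the groups did not overlap for 2 of the 7 members, INSIG1 and ABCA1, against 5.75% of all genes tested, and between HSD and HSUD for the same 2 members against 5.52%. Of all genes tested, 0% were called for the medium by edgeR in unheated cells, in heated cells or in their average, so the members' 0 calls equal the background. Of the members 2 of 7 had an unadjusted p under 0.05 in the averaged comparison, the same pair, against 4% of all genes. With the replicate block 0 of the 7 members were called, against 0.0066% of all genes in unheated cells, 0.0198% in heated cells and 0.805% in the average.

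In unheated and just-heated cells the SREBF1 to SREBF2 ratio was lower in the lactogenic medium in 6 of 6 same-numbered pairs. The level of each of these transcription factor genes overlapped between the unheated media. SREBF1, which encodes the factor best known for lipogenic genes, was at 134, 208 and 249 CPM in the NHSUD libraries and 107, 162 and 169 CPM in those of NHSD. It was lower in NHSD in every replicate, yet the groups overlapped. SREBF2 was at 187, 274 and 318 CPM in the NHSUD libraries and 180, 284 and 358 CPM in those of NHSD, which is higher in 2 of 3 replicates. Averaged over unheated and heated cells, the log2 fold change was -0.38 ± 0.19 for SREBF1 and 0.09 ± 0.18 for SREBF2 (edgeR, both with an adjusted p of 1). The ratio of SREBF1 to SREBF2 counts within a library cancels library scaling and what moves both genes alike, but its absolute size depends on gene length. It was 0.753 ± 0.0344 in NHSUD and 0.545 ± 0.0633 in NHSD (SD, n = 3), without overlap. In heated cells it was 0.707 ± 0.0689 in HSUD and 0.519 ± 0.106 in HSD, where HSD replicate 1 (0.640) lay just above HSUD replicate 2 (0.634). Within each replicate number the HSD ratio was the lower one. The recovery groups, in the same lactogenic medium, did not keep the low ratio. It was 0.723 ± 0.194 in D2R (0.742, 0.907 and 0.520) and 0.818 ± 0.220 in D6R (0.779, 1.06 and 0.621). The D6R mean was above that of NHSUD. The ratio was not tested.

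**Figure D2:**
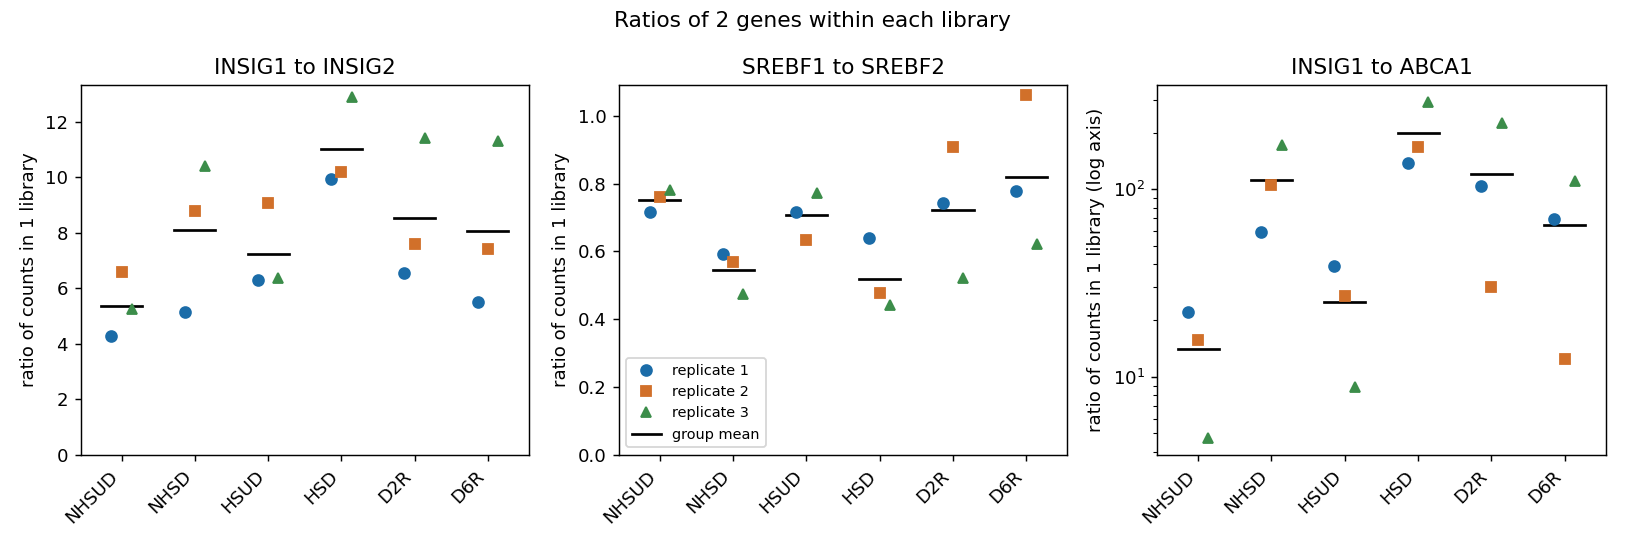
Ratios of the counts of 2 genes within each library (vertical axes, the right one logarithmic) in the 6 groups, with symbols for the replicate numbers and black lines for group means. INSIG1 to INSIG2 averaged 5.37 in NHSUD and 11.01 in HSD; SREBF1 to SREBF2 was 0.715 to 0.782 in NHSUD and 0.473 to 0.593 in NHSD; INSIG1 to ABCA1 averaged 14.2 in NHSUD and 200 in HSD.

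INSIG2, which shares the retention role of INSIG1 but is not known as a strong SREBP target, varied little. Over all 18 libraries it spanned 27.1 to 41.5 CPM, a 1.53-fold range, against 3.29-fold for INSIG1. The log2 fold change with the medium was 0.08 ± 0.11 (SE; edgeR, adjusted p = 1). The ratio of INSIG1 to INSIG2 counts therefore followed INSIG1: it averaged 5.37 ± 1.17 in NHSUD, 8.09 ± 2.69 in NHSD, 7.24 ± 1.59 in HSUD and 11.01 ± 1.63 in HSD (SD, n = 3). HSD was the one group whose 3 ratios, 9.93, 10.2 and 12.9, all lay above every NHSUD and HSUD value.

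SCAP, the sterol sensor itself, and NPC1, the lysosomal exporter, did not separate the media. SCAP was at 87.0, 98.7 and 87.6 CPM in the NHSUD libraries and 80.8, 106 and 90.3 in those of NHSD. NPC1 was at 48.6, 67.9 and 67.7 CPM in the NHSUD libraries and 49.6, 72.3 and 87.6 in those of NHSD. Both pairs of groups overlapped. The averaged log2 fold change was -0.03 ± 0.11 for SCAP and 0.17 ± 0.14 for NPC1, and with the block and ± 2 SE it spanned -0.17 to 0.11 for SCAP and -0.03 to 0.38 for NPC1.

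After 1 h at 42 °C, INSIG1 rose in the blocked fit averaged over the media. HSUD values (231, 246 and 203 CPM) were above every NHSUD value, while HSD values (344, 296 and 462 CPM) overlapped those of NHSD because NHSD replicate 3 stood at 329 CPM. The log2 fold change with heat was 0.55 ± 0.26 (SE) in undifferentiated and 0.54 ± 0.26 in differentiated cells, called in neither alone (edgeR with the block, adjusted p of 0.284 and 0.316). Their difference, the interaction, was -0.0034 ± 0.36 without the block (edgeR, adjusted p = 1) and lay between -0.57 and 0.57 with it (± 2 SE). Averaged over the media the log2 fold change was 0.54 ± 0.18 (edgeR, adjusted p = 0.266), and 0.56 ± 0.14 or 1.47-fold with the replicate block (adjusted p = 0.0368), higher in 6 of 6 pairs of the same replicate number. Without the block edgeR called 0 of 7 members and 0.785% of all genes, with 1 member at an unadjusted p under 0.05. DESeq2 also called 0 members. With the block it called 1 of 7 members against 6.1% of all genes, so the count itself is near the background.

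The blocked call of INSIG1 was kept in 3 of 12 fits that each left out 1 library, and the log2 fold change stayed between 0.46 and 0.66. The adjusted p for INSIG1 was 0.0226 without NHSUD replicate 2, 0.00615 without HSUD replicate 3 and 0.0457 without HSD replicate 2. It was 0.0663 without NHSUD replicate 1 and 0.0752 without NHSUD replicate 3. Without NHSD replicates 1, 2 and 3 in turn it was 0.0567, 0.0773 and 0.0716. Without HSUD replicate 1 it was 0.12 and without HSUD replicate 2 it was 0.0570. Without HSD replicate 1 it was 0.0517 and without HSD replicate 3 it was 0.111.

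Both SREBP genes had negative estimates with heat, and neither was called. SREBF1 was at 111, 169 and 152 CPM in HSUD and 140, 109 and 95.1 CPM in HSD, which was the lowest group mean of the 6 (114 ± 22.8). SREBF2 was at 155, 267 and 197 CPM in HSUD and 218, 228 and 216 CPM in HSD. The averaged log2 fold change was -0.40 ± 0.19 for SREBF1 (edgeR, adjusted p = 0.502, or 0.203 with the block) and -0.32 ± 0.18 for SREBF2 (0.565, or 0.117 with the block). Each was lower in 5 of 6 pairs of the same replicate number, the exception being the differentiated pair of replicate 1 in both genes. Without HSD replicate 1, the heated library of that exception, the blocked adjusted p was 0.00867 for SREBF1 and 0.0185 for SREBF2. Without HSUD replicate 2 it was 0.0180 for SREBF2, whose drop in undifferentiated cells was smallest in that replicate (-0.04 on the log2 CPM scale). These fits leave out the libraries that went least with the direction, so the lower p-values follow from that choice and add no support.

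In undifferentiated cells alone 0 of 7 members were called with heat, against 0.125% of all genes by edgeR and 0.633% with the block, and the groups did not overlap for 1 member, INSIG1, against 7.62% of genes. In differentiated cells alone 0 of 7 members were called, against 0.099% and 0.554%, and no member's groups were free of overlap, against 7.9% of genes. SCAP was at 81.8, 101 and 75.6 CPM in HSUD and 85.4, 86.3 and 71.5 in HSD, with an averaged log2 fold change of -0.13 ± 0.11. NPC1 was at 43.4, 72.8 and 53.4 CPM in HSUD and 63.7, 59.0 and 65.0 in HSD, with -0.14 ± 0.14. The estimate was 0.09 ± 0.11 for INSIG2 and -0.34 ± 0.51 for ABCA1. ABCA1 was lower in heated cells in 6 of 6 pairs, by 0.11 to 0.41 on the log2 CPM scale, a gap smaller than that between the replicates of an undifferentiated group.

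**Figure D3:**
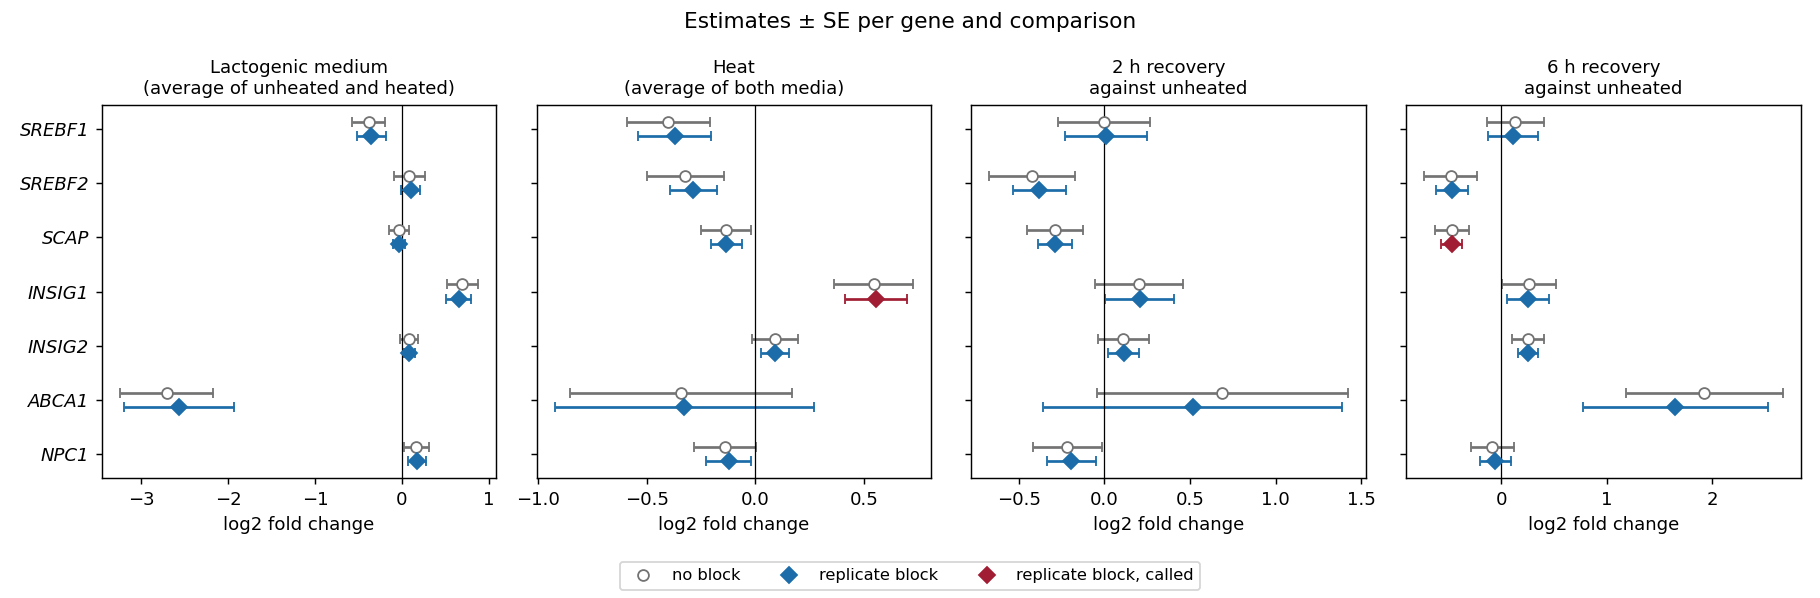
Log2 fold change ± SE (horizontal axes, a different scale in each panel) of the 7 genes in 4 comparisons; open circles are the fit without and diamonds the fit with the replicate block, red where called. The 2 called estimates are INSIG1 with heat (0.56) and SCAP at 6 h of recovery (-0.47), both with the block.

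SCAP fell below the unheated level by 6 h of recovery in the blocked fit. Its values were 62.8, 88.2 and 76.2 CPM at 2 h (D2R) and 56.0, 80.0 and 64.9 CPM at 6 h (D6R), against 80.8, 106 and 90.3 CPM in NHSD. All 3 D6R libraries were below all 3 NHSD libraries, and the drop within replicates 1, 2 and 3 was -0.53, -0.41 and -0.48 on the log2 CPM scale. The log2 fold change at 6 h was -0.46 ± 0.16 (SE; edgeR, adjusted p = 0.706), and -0.47 ± 0.10 with the replicate block (adjusted p = 0.0236), a level 1.38-fold lower. At 2 h it was -0.29 ± 0.10 with the block (adjusted p = 0.298), and between 2 h and 6 h it was -0.18 ± 0.10 (0.49). With the block, edgeR called 1 of 7 members at 6 h against 1.45% of all genes. Without it edgeR called 0 members and 0.0132% of all genes, with 2 members, SCAP and ABCA1, at an unadjusted p under 0.05, and DESeq2 called 0 members.

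The blocked call of SCAP held in 1 of 6 fits that left out 1 library, with a log2 fold change of -0.51 to -0.40. The adjusted p for SCAP was 0.0403 without NHSD replicate 1, 0.143 without replicate 2 and 0.111 without replicate 3. Without D6R replicate 1 it was 0.0575, without replicate 2 it was 0.0614 and without replicate 3 it was 0.117.

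SREBF2 and INSIG2 had estimates of opposite sign over the same hours. SREBF2 was at 182, 200 and 233 CPM in D2R and 146, 210 and 235 CPM in D6R, and the 6 h libraries were below the NHSD library of the same number in all 3 replicates. Its log2 fold change at 6 h was -0.48 ± 0.25 (edgeR, adjusted p = 0.881, or 0.136 with the block). INSIG2 was at 38.4, 30.5 and 34.0 CPM in D2R and 41.5, 34.95 and 37.2 CPM in D6R, above NHSD in all 3 replicates at both times. Its log2 fold change at 6 h was 0.25 ± 0.15 (adjusted p = 0.916, or 0.165 with the block). Neither passed the test, and for both genes the D6R and NHSD libraries overlapped.

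By group mean, INSIG1 stood between its unheated and heated levels during recovery. It was at 251, 232 and 388 CPM in D2R and 229, 259 and 420 CPM in D6R. The log2 fold change against NHSD was 0.20 ± 0.26 at 2 h and 0.26 ± 0.26 at 6 h, and against the end of heat (HSD) it was -0.34 ± 0.26 at 2 h (edgeR, adjusted p of 0.999, 0.988 and 1). D2R was below HSD in all 3 replicates and above NHSD in 2 of 3. Replicate 3 was the highest library in NHSD, HSD, D2R and D6R, and D6R was above NHSD in all 3 replicates. Without D6R replicate 3 the 6 h estimate was -0.05 without the block, where the NHSD library of that number stayed in, and 0.08 with it.

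The size of the ABCA1 change in recovery depended on 1 library. D2R held 2.41, 7.63 and 1.72 CPM and D6R 3.30, 20.7 and 3.78 CPM. Replicate 2 was the highest at both times, and the other D6R libraries lay just above the NHSD range of 1.91 to 3.12 CPM. On the log2 CPM scale, replicates 1, 2 and 3 differed from NHSD by -0.37, 1.70 and -0.15 at 2 h. At 6 h they differed from NHSD by 0.08, 3.14 and 0.97, and from D2R by 0.45, 1.44 and 1.12. The log2 fold change at 6 h was 1.93 ± 0.74 (SE; edgeR, adjusted p = 0.746, or 0.396 with the block), and it was 0.55 without D6R replicate 2. D6R and NHSD did not overlap for 2 of 7 members, SCAP and ABCA1, against 9.7% of all genes.

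SREBF1 and NPC1 showed no one direction during recovery. SREBF1 was at 135, 182 and 121 CPM in D2R and 114, 221 and 146 in D6R, with a log2 fold change at 6 h of 0.14 ± 0.27. NPC1 was at 55.7, 56.8 and 68.3 CPM in D2R and 62.6, 65.0 and 70.5 in D6R, with a log2 fold change at 6 h of -0.08 ± 0.20. Both genes had D6R values on either side of the NHSD library of the same number. At 2 h against NHSD 0 of 7 members were called by edgeR, with or without the block, against 0.0792% and 0.224% of all genes. Between 2 h of recovery and the end of heat the figures were 0 of 7 members against 0.0528% and 0.389%, and between 6 h and 2 h 0 of 7 against 0%.

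The spread between replicate numbers was larger than that between groups in SREBF2, INSIG2 and NPC1. The replicate number accounted for 48.9% of the spread of log2 CPM in SREBF2, 51.5% in INSIG2 and 40.5% in NPC1, against 26.3%, 40.0% and 16.5% for the groups. A split into 6 groups takes a larger share than 1 into 3 numbers even where nothing differs. The shares were not tested. SREBF2 and NPC1 were lowest in replicate 1 in 5 of 6 groups, SCAP was highest in replicate 2 in 6 of 6, and INSIG2 was highest in replicate 1 in 5 of 6. INSIG1 and ABCA1 were the members with the most spread between groups, 64.4% and 62.7%, against 15.2% and 6.20% between replicate numbers.

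Ordered by group mean, INSIG1 ran from HSD (367 ± 85.7 CPM, SD, n = 3) through D6R (303 ± 103), D2R (290 ± 85.2), NHSD (252 ± 73.2) and HSUD (227 ± 21.7) to NHSUD (155 ± 22.7). Only the last step, from HSUD to NHSUD, was free of overlap between neighbours. ABCA1 ran from NHSUD (16.1 ± 12.7) and HSUD (12.6 ± 9.02) through D6R (9.28 ± 9.93) and D2R (3.92 ± 3.23) to NHSD (2.45 ± 0.614) and HSD (1.94 ± 0.483), with overlap at every step. SCAP ran from NHSD (92.4 ± 12.9) to D6R (67.0 ± 12.2), also with overlap at every step. In the remaining 4 members each group overlapped its neighbours in the order.

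For each member, the 3 genes with the most similar pattern were sought among 9762 genes with a symbol and a mean of at least 5 CPM, by Pearson's r of log2 CPM centred within each replicate number over the 18 libraries. The libraries share groups, plates and runs, so these values are descriptions. INSIG1 was most like SC5D (r = 0.948), CYP51A1 (0.909) and MSMO1 (0.896), all 3 enzymes of the later steps of cholesterol synthesis. ABCA1 was most like MYLIP (0.923), which encodes a ubiquitin ligase for lipoprotein receptors and is a known LXR target, then CA4 (0.829) and BNIP3 (0.825). SREBF2 was most like ITGB4 (0.948), AMPD2 (0.944) and PPARD (0.943), and SREBF1 most like BCR (0.905). SCAP was most like MBOAT7 (0.931), INSIG2 most like CHN2 (0.904) and NPC1 most like CLCN6 (0.872).

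The wider pathway was read from 5 lists that leave out the members. Among 21 cholesterol synthesis enzymes, 17 rose with the lactogenic medium and 0 fell in the blocked fit averaged over unheated and heated cells, against 0.805% of all genes called there, and the median log2 fold change was 0.47 against -0.01 over all genes. HMGCS1, which makes HMG-CoA for the pathway, went from 1761 ± 399 CPM in NHSUD to 3295 ± 465 in NHSD (SD, n = 3), with 0.92 ± 0.16 in the averaged blocked fit (SE; edgeR, adjusted p = 0.0149). IDI1, an isomerase of the isoprenoid steps, had 0.62 ± 0.10 (0.00856) and NSDHL, which removes methyl groups from sterols, 0.60 ± 0.10 (0.00749). The 3 genes most like INSIG1 were among the 17, with blocked estimates of 0.47 for SC5D, 0.59 for CYP51A1 and 0.67 for MSMO1. Their likeness was measured in the same libraries with the medium difference kept in, so these estimates are not separate evidence. Without the block 0 of the 21 were called, although 20 of 21 estimates were positive, and DESeq2 called 8. The blocked count ran from 8 to 18 when single libraries were left out. It was 10 without NHSUD replicate 3, 11 without NHSD replicate 2, 8 without NHSD replicate 3, 9 without HSUD replicate 3 and 10 without HSD replicate 3.

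Of 12 tested fatty acid and lipid targets of SREBP, 2 rose in the blocked averaged fit, in which 0.805% of all genes were called. These were ACSS2, which makes acetyl-CoA from acetate (0.77 ± 0.13, edgeR adjusted p = 0.0117), and TMEM97, an endoplasmic reticulum protein that binds sterols (0.30 ± 0.07, 0.0365). The list's median was 0.25. Among 25 genes of uptake, lysosomal release and transport between membranes, 1 rose, NPC2 (0.42 ± 0.08, adjusted p = 0.0124), the soluble lysosomal protein that hands cholesterol to NPC1. NPC2 averaged 718 ± 90.0 CPM in the NHSUD libraries and 979 ± 292 in those of NHSD, while NPC1 was not called. None of 22 genes of SREBP processing and reductase degradation was called for the medium by edgeR with or without the block, with a blocked median of -0.01. Without the block edgeR called 0 genes of these 3 lists. When single libraries were left out of the blocked fit, the calls ran from 1 to 4 in the fatty acid list and from 0 to 1 in the uptake list, whose call was lost without HSD replicate 3.

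The LXR list held 10 tested genes of 16, and edgeR called 0 of them for the medium, with or without the block. ABCG1, an exporter that hands cholesterol to high-density lipoprotein and an LXR target like ABCA1, had a log2 fold change of -0.75 ± 0.35 (edgeR with the block, adjusted p = 0.411). MYLIP, counted in the uptake list, had -0.61 ± 0.19 (adjusted p = 0.205) and averaged 16.6 ± 4.40 CPM in the NHSUD libraries and 10.3 ± 1.56 in those of NHSD. The list's blocked median was -0.04.

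With heat, few list genes passed the blocked test, against the 6.1% of all genes. SC5D was the 1 of 21 cholesterol enzymes that rose (0.34 ± 0.10, edgeR with the block, adjusted p = 0.0425), and the list's median was 0.12. Among 22 processing and degradation genes 2 rose, PGRMC1, a haem-binding membrane protein (0.29 ± 0.08, 0.0403), and UBE2G2, a ubiquitin-conjugating enzyme of endoplasmic reticulum-associated degradation (0.27 ± 0.07, 0.0228). In the LXR list RXRA, the partner of LXR, fell (-0.35 ± 0.10, 0.0408). None of the 12 fatty acid genes was called. When single libraries were left out of the blocked fit, the calls with heat ran from 0 to 1 in the cholesterol, fatty acid and LXR lists and from 0 to 5 in the processing list. Without the block, edgeR and DESeq2 called 0 genes of any of the 5 lists with heat.

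At 6 h of recovery 0 genes of the 5 lists were called by edgeR with or without the block, against 1.45% and 0.0132% of all genes. In the SREBP processing list SEC24B, a coat protein of the vesicles that carry SCAP, had -0.40 ± 0.10 (edgeR with the block, adjusted p = 0.0564). SCARB1, a receptor for high-density lipoprotein in the uptake list, had -0.46 ± 0.12 (0.0572). The list medians were -0.12 for cholesterol synthesis, -0.03 for processing and 0.09 for uptake. From the end of heat to 2 h of recovery 20 of 21 cholesterol synthesis estimates were negative, with a median of -0.19 and 0 calls.

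**Figure D4:**
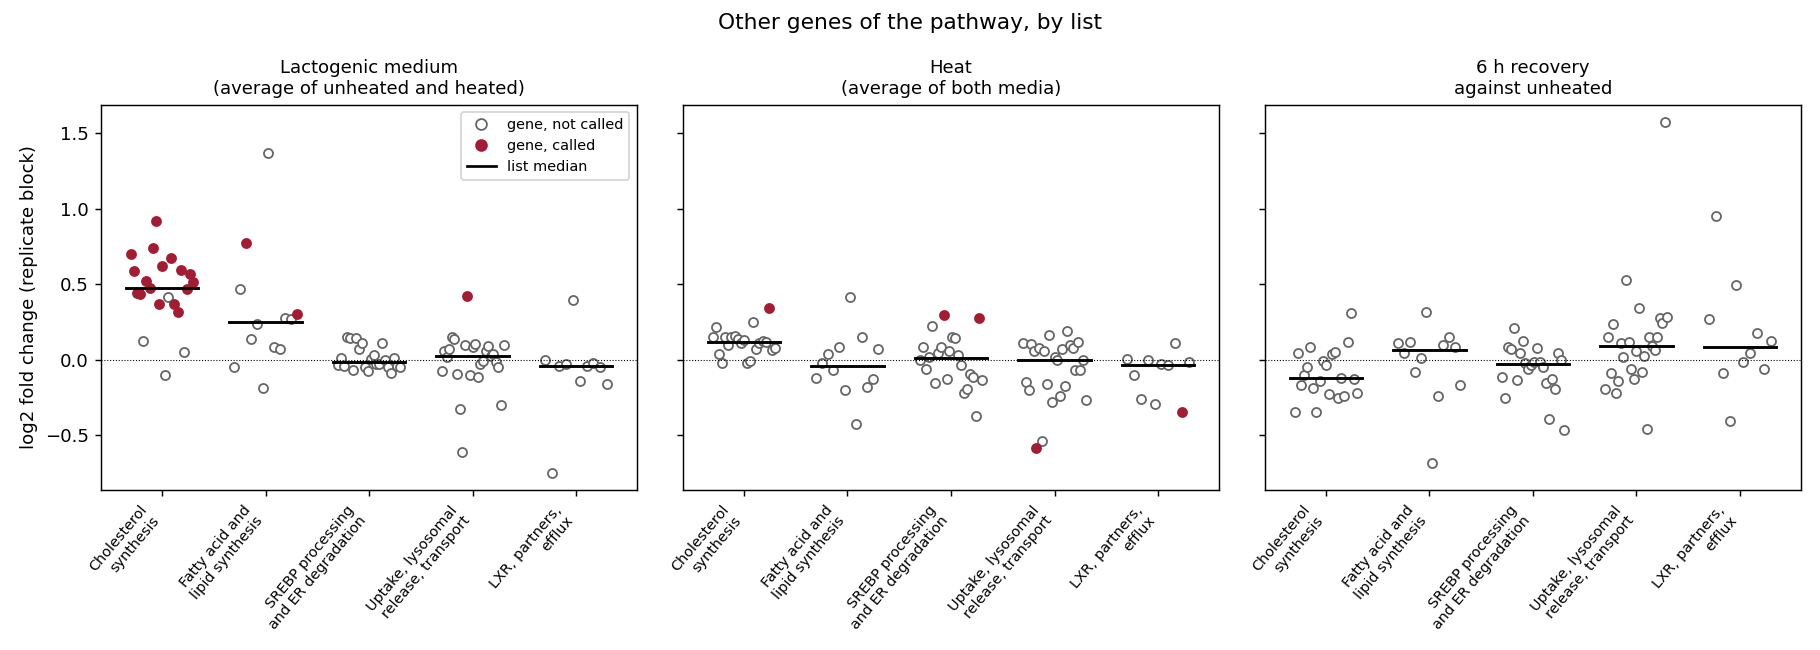
Blocked log2 fold change (vertical axis) of each tested gene of 5 pathway lists in 3 comparisons; filled red points were called at an adjusted p under 0.05 and black lines are list medians. The cholesterol synthesis list stands at a median of 0.47 with the lactogenic medium, 0.12 with heat and -0.12 at 6 h of recovery.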

How the data were processed

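Raw counts per gene were deposited for 18 libraries. Per the labels' protocols, the authors used fastp 0.23.2 for trimming and STAR 2.7.9a for alignment to ARS-UCD 1.3. The submitters' processing notes also name featureCounts 2.0.3, DESeq2 and limma, with no role. Not given in the sources used here are the annotation and how strand and multi-mapping were handled. Even numbers made up 72.1% of counts from 1 to 19, so both mates of a pair may each have been counted, which was not tested.

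Genes were filtered (filterByExpr, minimum count 10), scaled by TMM and tested with edgeR 4.0.16 (robust quasi-likelihood, two-sided) in R 4.3.3, with Benjamini-Hochberg adjustment over 15158 genes. DESeq2 1.42.0, other scalings, other filters, fits of the compared groups alone, a replicate block and leaving out each library were alternatives. The block combined with leaving out a library was added after seeing the data. The script was tested on simulated data. The members and lists were chosen with earlier results of these data known. From each list, at most 4 genes with the largest change (mean of at least 5 CPM) and genes that passed were eligible to be named, and some of these are not reported here.

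The labels state that the experiment was repeated, and the replicate numbers paired the libraries: deviations from group means correlated at 0.135 to 0.596 in all 45 same-numbered pairs. The median was -0.20 in 90 pairs of other numbers and groups. Deviations within a group sum to 0, which pushes these below 0 when same-numbered pairs are above it. The negative median is therefore not separate evidence of pairing. No 2 libraries of the same group were duplicates, and pairs across groups were not checked in this way. Nothing says more about the independence of cultures, so p-values measure the spread between these libraries.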

Additional observations from a re-analysis of the deposited data

How the results depend on the processing

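Without the block, 0 members were called in all 11 comparisons under every scaling, filter and left-out library tried with edgeR. The replicate block called 1 member for heat averaged over the media (INSIG1) and 1 at 6 h of recovery (SCAP), and changed no other member's call. DESeq2 called 1 member for the averaged medium (ABCA1). With the block and 1 library left out, the number of members called was 0 to 1 for the averaged medium, 0 to 2 for averaged heat and 0 to 1 at 6 h of recovery. Over all genes, the block moved the calls from 0 to 122 for the averaged medium (DESeq2 37), from 119 to 925 for averaged heat (DESeq2 284) and from 2 to 220 at 6 h of recovery (DESeq2 39). Of 77 member estimates 43 lay within 1 SE of 0 and carry no direction. Of the other 34, 2 changed sign, both when a library was left out. ABCA1 between 6 h and 2 h of recovery was -0.15 without D6R replicate 2, and -0.12 with the block as well. The high D2R replicate 2 stayed in both of these fits. Without D2R replicate 2 the ABCA1 estimate was up to 2.17, and 1.88 with the block. INSIG1 at 6 h was -0.048 without D6R replicate 3 and up to 0.51 without NHSD replicate 3. The common coefficient of variation between libraries was 0.245 without and 0.14 with the block. ABCA1, with as few as 69 counts in a library, had the lowest counts of the members. The SD of its CPM was 78.5% of the mean in NHSUD, at 382 to 1606 counts, and 24.9% in HSD, at 70 to 126. In D2R it was 82.5%, at 69 to 434 counts. The part of depth in this spread was not tested.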
